A study of Mus musculus with 24 samples.

Results

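The 10 genes described here encode ligands, a co-receptor, inhibitors and feedback regulators of the Nodal and fibroblast growth factor (FGF) pathways. They are Nodal, Gdf3, Tdgf1, Lefty1, Lefty2, Fgf4, Fgf5, Spry2, Spry4 and Dusp6, chosen by symbol, and all 10 were found among the 37310 gene entries of each of 2 tables of normalized expression. In mouse embryonic stem (ES) cells that lack the 3 Tet genes, cells that also lacked Smchd1 had lower Lefty2, Gdf3 and Fgf4 and higher Dusp6 transcript levels. In that comparison 37.7% of all genes tested passed the same threshold, and the share among these 10 genes was near it. In cells with their Tet genes intact, Fgf4 and Tdgf1 were lower when both Smchd1 and Dux were deleted than when Smchd1 alone was deleted. There 4.38% of all genes passed. Both calls came from a fit to all genotypes of that table, and neither gene passed in a fit to the 2 compared genotypes alone.

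Nodal is a secreted ligand of the TGF-beta family that signals through activin receptors, with the co-receptor Cripto, encoded by Tdgf1, and through SMAD2, SMAD3 and FOXH1. The pathway switches on Nodal itself and the genes of its secreted inhibitors, Lefty1 and Lefty2, which closes a negative feedback loop. FGF4 made by ES cells acts on FGF receptors and the kinase ERK, and ERK signalling induces Spry2, Spry4 and Dusp6, which dampen it. Fgf5 is low in naive ES cells and is switched on as they move towards a primed epiblast state. SMCHD1 is a chromatin protein that maintains gene silencing, DUX activates early-embryo genes, and the TET enzymes oxidise methylated cytosine, so that their loss is known to alter Lefty and Nodal signalling.

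ES cells of 6 genotypes were sequenced with 3 biological replicates each, in 24 libraries. Double KO cells lacked Smchd1 and Dux, Smchd1 KO and Dux KO cells lacked 1 of these genes, and WT cells were unmodified. In the other table, quad KO cells lacked the 3 Tet genes and Smchd1, and Tet TKO cells, their reference, lacked the Tet genes alone. All were grown without feeder cells on gelatin in medium with serum and leukaemia inhibitory factor, and libraries were made from total RNA depleted of ribosomal RNA. The WT and Smchd1 KO samples had 2 technical runs each, which were averaged and counted once. Whether a knockout line was 1 clone or several is not given in the sources used here.

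Expression is given in read counts per 1000000 gene reads of effective library size (CPM), with errors as SD and n = 3 throughout. The 2 tables were normalized separately, so comparisons stay within a table. Gene reads per library numbered 11399800 to 74448400 in the first table and 27325300 to 34590000 in the second. Smchd1 itself stood at 79.0 ± 8.48 CPM in Double KO against 193 ± 19.6 CPM in Dux KO, at 60.4 ± 15.3 CPM in Smchd1 KO against 206 ± 2.28 CPM in WT, and at 23.4 ± 14.7 CPM in quad KO against 155 ± 5.46 CPM in Tet TKO. Dux had at most 0.847 CPM in any sample, too few reads to check the Dux deletion. The Tet genes still gave reads in both genotypes of the second table. Tet1 had 289 ± 7.22 CPM in quad KO and 272 ± 3.21 CPM in Tet TKO, and Tet3 had 45.3 ± 1.58 and 44.4 ± 1.47 CPM. Tet2 was lower in quad KO, at 235 ± 2.81 CPM, than in Tet TKO, at 337 ± 6.57 CPM. These levels do not check the Tet deletions, which come from the labels. All 8 ES cell markers averaged at least 1 CPM in every genotype. The median squared difference between replicates was 1.25 to 3.06 times that of counting error in WT and 1.39 to 1.73 times in Tet TKO. It was 2.26 to 2.86 times between the 2 runs of a WT replicate, so the spread of WT and Tet TKO may be technical, and 15.7 to 30.3 times between replicates of Double KO or Dux KO. Between replicates it was 3.62 to 10.6 times in quad KO and 3.14 to 12.8 times in Smchd1 KO, whose runs were paired by this measure. The fit of the second table pools the spread of quad KO with the smaller spread of Tet TKO. In 4 samples, Double KO replicate 3, Smchd1 KO replicate 2 and Dux KO replicates 2 and 3, the median level of a whole autosome stood more than 0.4 on the log2 scale away from WT. Chromosome 6, which carries Gdf3, had a median of -0.45 in Double KO replicate 3, -0.45 in Smchd1 KO replicate 2 and -0.41 in Dux KO replicate 2. Chromosome 1, which carries Lefty1 and Lefty2, stood at 0.49 in Double KO replicate 3, and chromosome 8, with none of the 10 genes, at -0.44 in Dux KO replicate 3. RNA came from whole cultures, in which fewer cells of a type and less RNA per cell cannot be told apart.

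The first comparison asks what loss of Smchd1 does to the 10 genes when the Tet genes are already absent. In quad KO compared with Tet TKO, 3 genes fell and 1 rose, among 10 tested, where 37.7% of all 14920 genes tested passed, 20.6% as lower and 17.1% as higher. The threshold was a two-sided limma p of 0.05 on log2(CPM + 0.5), adjusted over all genes by the Benjamini-Hochberg method. The share among the 10 genes is near that background. By edgeR 5 of the 10 passed (38.3% of all genes), and by DESeq2 5 (36% of all genes), with Fgf5 as the gene added. The median log2 change of the 10 genes was -0.04, against -0.01 over all genes tested. Replicates did not overlap between the genotypes for 5 of the 10 genes, against 53.3% of all genes.

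Among the ligands of the Nodal pathway, Nodal (ENSMUSG00000037171.6, chromosome 10) had 66.5, 74.4 and 93.3 CPM in the quad KO replicates, against 67.9, 72.8 and 72.2 CPM in those of Tet TKO. The 2 genotypes overlapped, with quad KO replicate 3 the highest, and the log2 difference was 0.12 ± 0.11 (SE; limma adjusted p = 0.417). Gdf3 (ENSMUSG00000030117.4, chromosome 6), a TGF-beta family ligand that can signal through the same receptors as Nodal, had 62.6, 52.7 and 62.6 CPM in quad KO, against 105, 106 and 104 CPM in Tet TKO. Every quad KO replicate lay below every Tet TKO replicate, and Gdf3 fell 1.76-fold (log2 -0.82 ± 0.07 SE, limma adjusted p = 0.000191). On chromosome 6 the median over 692 genes stood 0.21 to 0.28 lower on the log2 scale in the quad KO replicates. With each chromosome median centred in every sample, the log2 change of Gdf3 was -0.56 and it still passed (limma adjusted p = 0.000748).

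The co-receptor gene Tdgf1 (ENSMUSG00000032494.8, chromosome 9) had 963, 982 and 1281 CPM in quad KO, against 1144, 1170 and 1198 CPM in Tet TKO. Quad KO replicate 3 lay above all Tet TKO replicates and the other quad KO replicates below them, and the gene did not pass (log2 -0.13 ± 0.10 SE, limma adjusted p = 0.325). Without quad KO replicate 3 its log2 change was -0.27 and it passed (limma adjusted p = 9.7e-05).

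The Nodal inhibitors differed from each other. Lefty2 (ENSMUSG00000066652.5, chromosome 1) had 12.7, 9.16 and 17.4 CPM in quad KO, against 23.4 CPM in each Tet TKO replicate. All quad KO replicates were lower, with replicate 3 nearest to Tet TKO, and Lefty2 fell 1.82-fold (log2 -0.86 ± 0.19 SE, limma adjusted p = 0.0109). Lefty1 (ENSMUSG00000038793.8, chromosome 1) had 25.2, 19.6 and 28.5 CPM in quad KO, against 25.2, 24.1 and 25.3 CPM in Tet TKO, so the genotypes overlapped (log2 -0.04 ± 0.13 SE, limma adjusted p = 0.829). The ratio of Lefty1 to Lefty2 within a sample was therefore 1.64 to 2.14 in quad KO and 1.03 to 1.08 in Tet TKO. The genotypes did not overlap in this ratio, with a log2 difference of 0.85 and an exact two-sided permutation p of 0.1, the smallest that 3 against 3 samples allow. The 2 genes are close relatives: of all 50-base words in their annotated transcripts, 306 of the 1707 of Lefty1 were shared with Lefty2, and 307 of the 2560 of Lefty2 with Lefty1 or another gene. How reads from such stretches were counted is not given in the sources used here, so the split between the 2 genes is uncertain to that extent.

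Of the FGF ligands, Fgf4 (ENSMUSG00000050917.4, chromosome 7) had 148, 150.3 and 164 CPM in quad KO, against 258, 259.8 and 260.5 CPM in Tet TKO. Both genotypes were tight and far apart, and Fgf4 fell 1.68-fold (log2 -0.75 ± 0.05 SE, limma adjusted p = 6.13e-05). Fgf5 (ENSMUSG00000029337.1, chromosome 5) had 3.74, 6.58 and 2.73 CPM in quad KO, against 1.87, 2.28 and 2.66 CPM in Tet TKO. Each quad KO replicate was above each Tet TKO replicate, but replicate 3 only just, and Fgf5 did not pass in limma (log2 0.74 ± 0.27 SE, adjusted p = 0.0655). It passed in edgeR (adjusted p = 0.0485) and in DESeq2 (adjusted p = 0.0156) on the reads recovered from the deposited values.

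The ERK feedback genes did not move as a group. Dusp6 (ENSMUSG00000019960.6, chromosome 10), which encodes a phosphatase that inactivates ERK, had 298, 302 and 308 CPM in quad KO, against 229, 236 and 231 CPM in Tet TKO. The genotypes were well separated, and Dusp6 rose 1.31-fold (log2 0.38 ± 0.03 SE, limma adjusted p = 0.000216). Spry2 and Spry4 encode Sprouty proteins, which inhibit signalling between the receptor and ERK. Spry2 (ENSMUSG00000022114.4, chromosome 14) had 225, 199 and 306 CPM in quad KO, against 236, 241 and 239 CPM in Tet TKO, and Spry4 (ENSMUSG00000024427.6, chromosome 18) averaged 287 ± 16.4 CPM in quad KO and 293 ± 4.33 CPM in Tet TKO. Both overlapped between the genotypes and neither passed (limma adjusted p = 0.992 for Spry2 and 0.594 for Spry4). Without quad KO replicate 3, Spry2 passed as lower (log2 -0.18, limma adjusted p = 0.0133), and 7 of the 10 genes passed, against 51.3% of all genes.

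**Figure D1:**
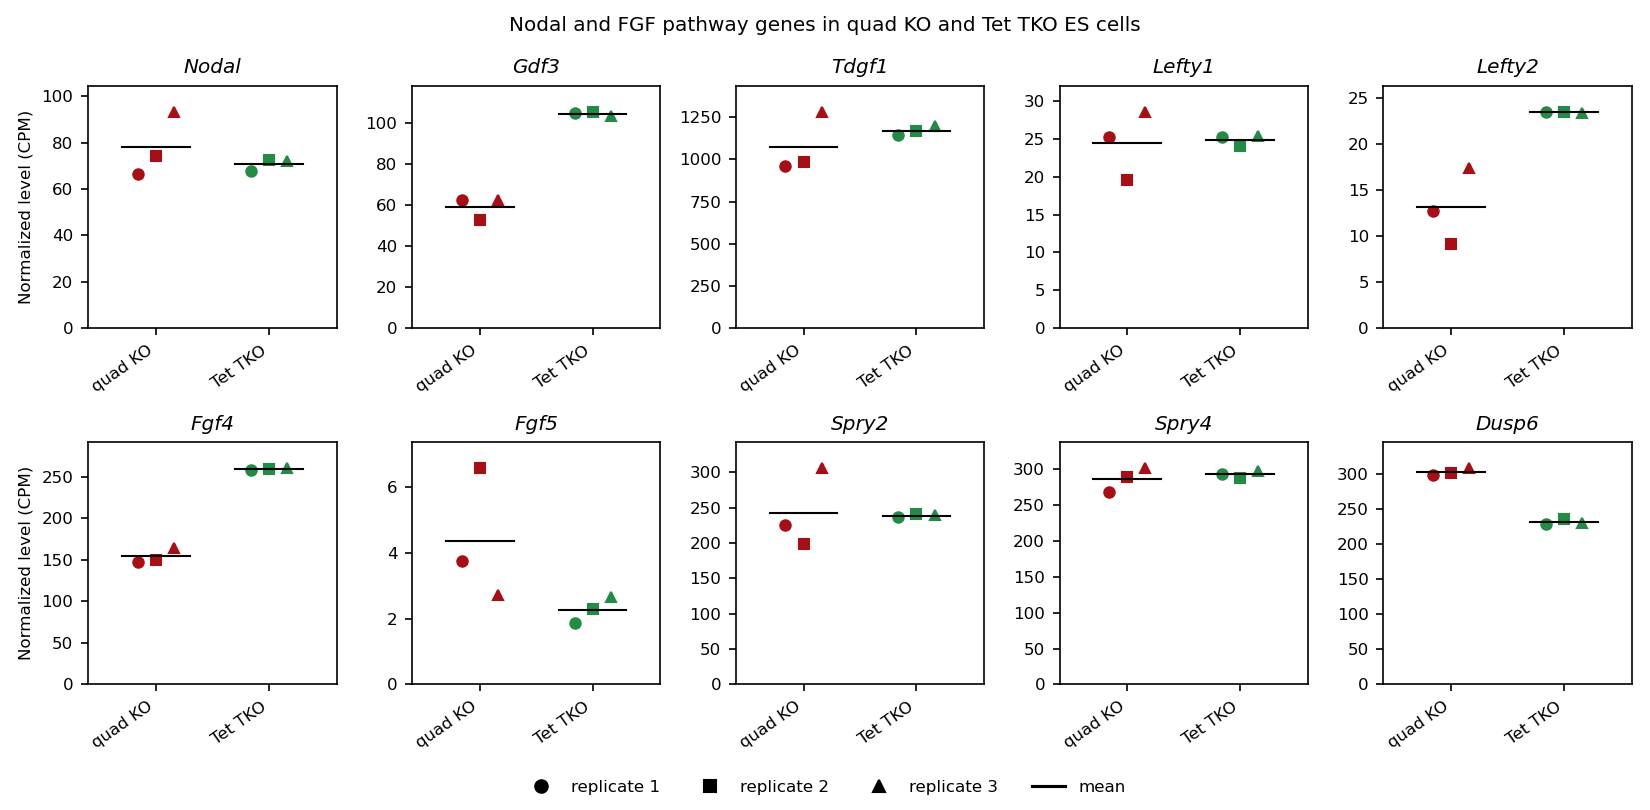
Normalized level in CPM (vertical axes, from 0) of each of the 10 genes in the 3 replicates of quad KO and of Tet TKO. Points are replicates and bars are means. Fgf4, Gdf3 and Lefty2 lie lower and Dusp6 higher in all 3 quad KO replicates, and quad KO replicate 3 stands above the others for Nodal, Tdgf1 and Spry2.

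Markers of cell state moved in the same comparison, in which 37.7% of all genes passed, 20.6% as lower and 17.1% as higher. Of 8 ES cell markers, 6 fell and 1 rose, and their summed level was 1889.8 to 2102 CPM in quad KO, against 2654 to 2718 CPM in Tet TKO. All 5 primitive streak and mesoderm markers tested rose (summed level of the 6 listed 41.7 to 61.0 CPM in quad KO, against 24.2 to 26.5 CPM in Tet TKO), as did all 3 trophoblast markers tested (234 to 454 CPM in quad KO, against 170.5 to 178 CPM in Tet TKO). Nanog, a core factor of naive pluripotency, had 52.4 ± 18.8 CPM in quad KO and 265 ± 11.8 CPM in Tet TKO (limma adjusted p = 0.00038). Other lists were mixed: of 6 endoderm markers tested 2 rose and 3 fell, of 5 primed epiblast markers 2 rose and 1 fell, of 3 ectoderm markers 2 rose and 1 fell, and of 4 fibroblast markers 2 rose. Of 6 markers of the 2-cell embryo 0 passed by limma (0 unadjusted, 0 by edgeR and 0 by DESeq2). Ttr, an endoderm marker, was at 0 in both genotypes. Pou3f1, a primed epiblast marker, has 2 entries, both at 0 in every sample of all 6 genotypes. Whether its reads were counted is not known, so its level cannot be read here. The part of these marker changes in the results for the 10 genes was not tested.

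Other genes of the 2 pathways, from lists of 25 Nodal and activin genes and 39 FGF and ERK genes, changed in both directions. Of 19 Nodal and activin genes tested, 5 rose and 5 fell in quad KO compared with Tet TKO, where 17.1% of all genes passed as higher and 20.6% as lower, and their median log2 change was 0.06. The farthest was Inhbb, which encodes a subunit of activin B. It had 0.688 ± 0.363 CPM in quad KO and 16.9 ± 1.77 CPM in Tet TKO, 15.0-fold lower on the log2(CPM + 0.5) scale (limma adjusted p = 3.00e-05). Fst, which encodes the activin inhibitor follistatin, rose 2.19-fold, with 46.6 ± 14.6 CPM in quad KO and 20.4 ± 1.53 CPM in Tet TKO (limma adjusted p = 0.00284). Smaller falls passed for Pcsk6, a protease that processes Nodal (1.59-fold), and for Pmepa1 and Smad7, which encode inhibitors of TGF-beta signalling (1.58-fold and 1.29-fold). Skil, which encodes a SMAD corepressor, rose 1.34-fold, and Smad3, which encodes a signal transducer, rose 1.24-fold.

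Of 39 FGF and ERK genes tested, 9 rose and 9 fell in quad KO, against the same 17.1% and 20.6% of all genes, and their median log2 change was -0.01, against -0.01 over all genes. Among receptors, Fgfr3 fell 2.49-fold, with 1.47 ± 0.370 CPM in quad KO and 4.38 ± 0.509 CPM in Tet TKO (limma adjusted p = 0.000867), and Fgfr2 fell 1.61-fold (limma adjusted p = 0.0011). The ligands Fgf15 and Fgf3 fell 2.01-fold and 1.55-fold. Among genes that encode inhibitors of receptor or ERK signalling, Errfi1 (2.05-fold), Il17rd (1.70-fold) and Spred3 (1.64-fold) rose, and so did Phlda1 (1.41-fold), a gene known to respond to ERK. These 8 genes are those with the largest changes among the 18 that passed.

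**Figure D2:**
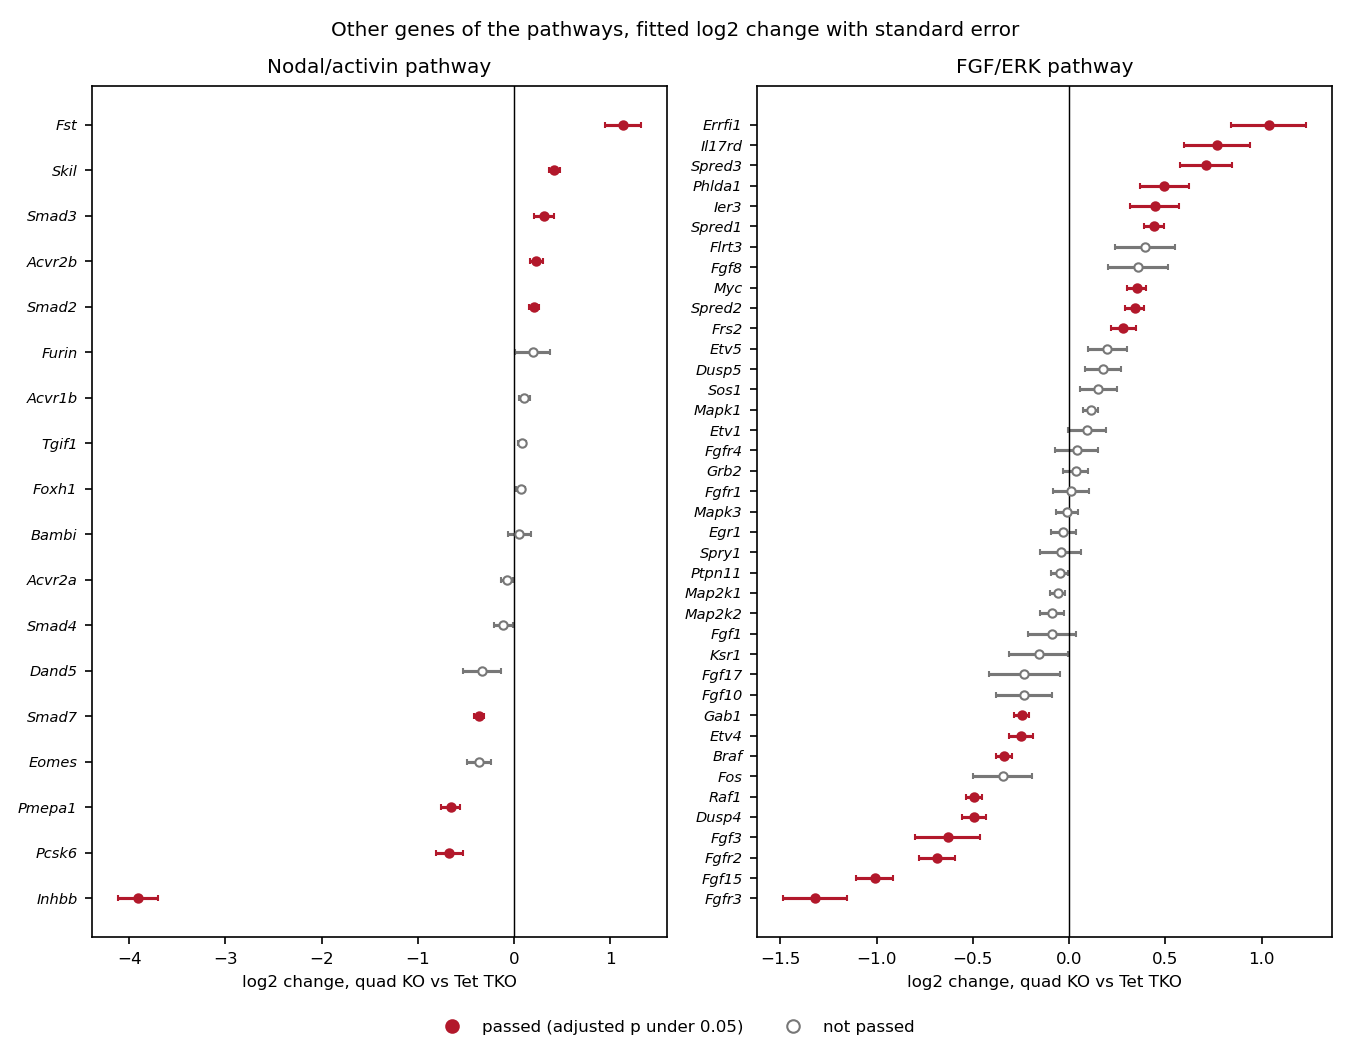
Fitted log2 change in quad KO compared with Tet TKO (horizontal axes) for other genes of the Nodal and activin pathway and of the FGF and ERK pathway, with bars of 1 SE and filled points for genes that passed. Changes run in both directions in each list, and Inhbb at -3.91 stands apart from the rest.

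The next comparison asks what loss of Smchd1 does with the Tet genes and Dux present. No gene of the 9 tested passed in Smchd1 KO compared with WT by limma, where 0.889% of all 16200 genes passed. At an unadjusted p under 0.05, 6 of the 9 were counted, against 16.4% of all genes. By edgeR 0 of 9 passed (1.42% of all genes), and by DESeq2 1 of 9 passed, Spry4 (6.68% of all genes). Replicates did not overlap between the genotypes for 6 of the 9 genes, 4 below WT and 2 above it, against 57.7% of all genes (29.6% below and 28.2% above), a share near the background. The fit shares 1 estimate of spread over 4 genotypes; in a fit to Smchd1 KO and WT alone, 6 of the 9 genes passed, against 44.1% of all genes, and without the 4 samples with a shifted autosome 4 of the 9 passed (17.3% of all genes).

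The ERK feedback genes lay below WT in every Smchd1 KO replicate. Dusp6 had 55.9, 46.3 and 69.8 CPM in Smchd1 KO, against 116, 107 and 111 CPM in WT (log2 -0.97 ± 0.32 SE, limma adjusted p = 0.188). Spry4 had 128, 102 and 111 CPM in Smchd1 KO, against 219, 211 and 217 CPM in WT (log2 -0.93 ± 0.29 SE, limma adjusted p = 0.164; DESeq2 adjusted p = 0.0454). Spry2 averaged 68.4 ± 4.80 CPM in Smchd1 KO and 114 ± 3.31 CPM in WT, again with no overlap (log2 -0.73 ± 0.26 SE, limma adjusted p = 0.211). Fgf4 was on the other side, with 344, 372 and 335 CPM in Smchd1 KO, against 254, 268 and 261 CPM in WT (log2 0.42 ± 0.19 SE, limma adjusted p = 0.295).

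Of the Nodal pathway genes, Tdgf1 had 1479, 1301 and 1184 CPM in Smchd1 KO, against 984, 1093 and 1007 CPM in WT. All Smchd1 KO replicates were above WT, but the gene did not pass (log2 0.36 ± 0.20 SE, limma adjusted p = 0.38). Gdf3 lay below WT in every replicate, at 76.0 ± 3.91 CPM in Smchd1 KO and 109 ± 2.67 CPM in WT (limma adjusted p = 0.2). Nodal overlapped, at 60.7 ± 4.25 CPM in Smchd1 KO and 57.7 ± 2.08 CPM in WT (limma adjusted p = 0.879).

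The inhibitor genes split the Smchd1 KO replicates. Lefty1 had 27.6, 80.4 and 25.3 CPM in Smchd1 KO, against 80.1, 81.0 and 85.3 CPM in WT. Lefty2 had 25.2, 65.0 and 24.2 CPM in Smchd1 KO, against 46.6, 45.8 and 49.6 CPM in WT. Replicate 2 of Smchd1 KO was thus at the WT level for Lefty1 and above it for Lefty2, while replicates 1 and 3 were well below WT for both, and neither gene passed (limma adjusted p = 0.292 for Lefty1 and 0.675 for Lefty2). Without replicate 2 the log2 changes were -1.62 for Lefty1 and -0.92 for Lefty2, against -1.09 and -0.46 with it. Replicate 2 is also the Smchd1 KO sample with a shifted autosome, chromosome 6. Both Lefty genes lie on chromosome 1, and whether the shift bears on their levels was not tested. The ratio of Lefty1 to Lefty2 was lower in all 3 Smchd1 KO replicates, at 1.04 to 1.24, than in WT, at 1.72 to 1.77 (log2 difference -0.63, exact two-sided permutation p = 0.1, the smallest possible).

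**Figure D3:**
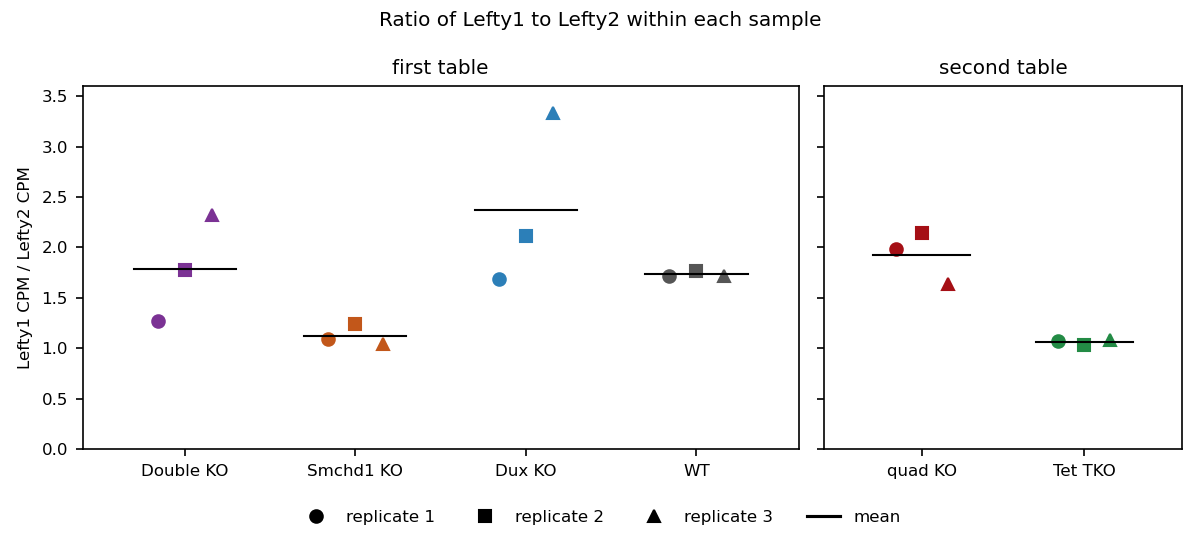
Lefty1 CPM divided by Lefty2 CPM within each sample (vertical axis, from 0), by genotype, for the first table (Double KO, Smchd1 KO, Dux KO and WT) and the second (quad KO and Tet TKO). Points are replicates and bars are means. The Smchd1 KO replicates lie at 1.04 to 1.24, below WT at 1.72 to 1.77, and the quad KO replicates at 1.64 to 2.14, above Tet TKO at 1.03 to 1.08.

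Cell-state markers varied within Smchd1 KO. The summed level of 9 endoderm markers was 77.1, 41.9 and 211 CPM in Smchd1 KO replicates 1, 2 and 3, against 74.9 to 80.0 CPM in WT. Replicate 3 was the highest and replicate 2 the lowest, and only Hnf4a of the 7 tested passed, as higher. Trophoblast markers summed to 74.5 to 171 CPM in Smchd1 KO, against 58.7 to 62.3 CPM in WT, and fibroblast markers to 22.2 to 51.5 CPM in Smchd1 KO, against 13.9 to 15.4 CPM in WT. Both sums lay above WT in every replicate. Most of the trophoblast sum came from Krt8 (49.3 ± 21.1 CPM in Smchd1 KO, 27.7 ± 0.731 CPM in WT) and Krt18 (63.4 ± 30.1 CPM and 31.2 ± 1.53 CPM). The other trophoblast markers averaged lower in Smchd1 KO. Cdx2 had 0.195 ± 0.0928 CPM in Smchd1 KO and 1.03 ± 0.260 CPM in WT, and Elf5, near the limit of detection, 0.0414 and 0.0647 CPM. By limma 0 of 3 trophoblast markers passed (0 unadjusted, 0 by edgeR and 0 by DESeq2), as did 0 of 5 fibroblast markers (1 unadjusted, 0 by edgeR and 0 by DESeq2). All 6 markers of the 2-cell embryo rose. Whether these differences bear on the Nodal and FGF genes was not tested. Of the other pathway genes, 0 of 19 Nodal and activin genes passed by limma (3 at an unadjusted p under 0.05, 0 by edgeR and 1 by DESeq2), as did 0 of 38 FGF and ERK genes (9 unadjusted, 0 by edgeR and 4 by DESeq2).

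The third comparison asks what further loss of Dux does in cells without Smchd1. In Double KO compared with Smchd1 KO, 2 of the 9 genes tested, Fgf4 and Tdgf1, fell and 0 rose, where 4.38% of all genes passed, 2.98% as lower and 1.4% as higher. By edgeR 2 of 9 passed (5.54% of all genes), and by DESeq2 2 of 9 (15.2% of all genes). Fgf4 had 143, 244 and 146 CPM in Double KO, against 344, 372 and 335 CPM in Smchd1 KO. All Double KO replicates were lower, replicate 2 by the least, and Fgf4 fell 2.03-fold (log2 -1.02 ± 0.19 SE, limma adjusted p = 0.0168). Tdgf1 had 497, 892 and 664 CPM in Double KO, against 1479, 1301 and 1184 CPM in Smchd1 KO. Here too Double KO replicate 2 came nearest without overlapping, and Tdgf1 fell 1.98-fold (log2 -0.98 ± 0.20 SE, limma adjusted p = 0.0218). Of the words in its annotated transcripts, 8.86% were shared with the pseudogene Tdgf1-ps1, so a part of its reads is uncertain.

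These calls rest on a spread estimated over all 4 genotypes. In a fit to Double KO and Smchd1 KO alone neither gene passed (limma adjusted p = 0.0718 for Fgf4 and 0.0868 for Tdgf1; 0.781% of all genes passed), and leaving out Smchd1 KO replicate 1, 2 or 3 or Double KO replicate 1 also ended both calls, with adjusted p of 0.067 to 0.102 for Fgf4 and 0.067 to 0.141 for Tdgf1. Each Smchd1 KO replicate had 2 technical runs and each Double KO replicate 1, so that run number and genotype cannot be told apart here. Replicates did not overlap for 2 of the 9 genes, Fgf4 and Tdgf1, against 29.7% of all genes (16.7% with Double KO below). The other 7 overlapped. Among them, Dusp6 averaged 86.1 ± 39.3 CPM in Double KO and 57.3 ± 11.8 CPM in Smchd1 KO (limma adjusted p = 0.347), and Spry2 averaged 99.8 ± 34.8 CPM in Double KO and 68.4 ± 4.80 CPM in Smchd1 KO (limma adjusted p = 0.278).

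The promoters of Fgf4 and Tdgf1, the genes that fell together here, and of Dusp6, which rose in quad KO where Fgf4 fell, are shown for their CpG sites, the sites at which mammalian DNA is mostly methylated; no methylation was measured here. Each runs from 250 bases before to 50 bases after the transcript start in RefSeq (mouse build GRCm38.p6), on the strand of the gene, with CpG sites in capitals. The Fgf4 promoter (chr7:144861136-144861435, plus strand) and the Dusp6 promoter (chr10:99262981-99263280, plus strand) are rich in CpG sites, with 28 and 19, and the Tdgf1 promoter (chr9:110946109-110946408, minus strand) has 7, equal to the median over 32851 promoters.
Fgf4: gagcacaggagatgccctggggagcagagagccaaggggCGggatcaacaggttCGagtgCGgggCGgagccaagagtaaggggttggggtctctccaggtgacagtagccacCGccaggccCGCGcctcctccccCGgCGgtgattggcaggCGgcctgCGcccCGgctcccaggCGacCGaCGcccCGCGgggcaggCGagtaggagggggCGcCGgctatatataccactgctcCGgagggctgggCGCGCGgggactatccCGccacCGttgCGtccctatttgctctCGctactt
Tdgf1: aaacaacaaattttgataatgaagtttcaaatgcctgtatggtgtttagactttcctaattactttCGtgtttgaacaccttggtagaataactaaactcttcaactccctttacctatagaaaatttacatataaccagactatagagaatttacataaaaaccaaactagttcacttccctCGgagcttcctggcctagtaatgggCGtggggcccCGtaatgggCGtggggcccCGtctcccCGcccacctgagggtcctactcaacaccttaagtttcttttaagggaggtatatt
Dusp6: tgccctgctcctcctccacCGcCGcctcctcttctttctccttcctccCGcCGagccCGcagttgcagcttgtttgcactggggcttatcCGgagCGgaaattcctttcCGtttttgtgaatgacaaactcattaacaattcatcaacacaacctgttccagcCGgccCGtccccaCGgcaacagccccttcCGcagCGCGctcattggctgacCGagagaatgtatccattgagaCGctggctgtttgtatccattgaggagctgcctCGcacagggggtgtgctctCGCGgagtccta
Promoters of 6 of the 10 genes were in the table used. Of the others, Spry2 had 28 CpG sites, Fgf5 had 29 and Nodal had 5. So the genes that fell together differ in CpG density, 28 sites for Fgf4 against 7 for Tdgf1. On both strands, the FOXH1 motif ATNCACA was found once in the 6 promoters, in that of Dusp6, and in 13.0% of all promoters. The ETS motif CCGGAAG was in none of the 6 and in 8.86% of all promoters. A match describes the letters in this window only.

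Cell-state markers also differed between Double KO and Smchd1 KO samples. The summed level of the trophoblast markers was 697, 136 and 148 CPM in Double KO replicates 1, 2 and 3, against 74.5 to 171 CPM in Smchd1 KO, and that of 8 ES cell markers was 1958, 2418 and 3149 CPM in Double KO, against 3060 to 3347 CPM in Smchd1 KO. Most of the Double KO trophoblast sum came from Krt8 (142 ± 138 CPM) and Krt18 (181 ± 178 CPM), with Cdx2 at 3.61 ± 4.41 CPM. Double KO replicate 1, which had the lowest Fgf4 and Tdgf1, had the highest trophoblast and the lowest ES cell marker sums. Replicate 3 had nearly the same Fgf4 as replicate 1 (146 against 143 CPM), but the highest ES cell marker sum. Replicate 2 had the highest Fgf4 and Tdgf1, with the lowest trophoblast sum but not the highest ES cell marker sum. By limma 0 of 3 trophoblast markers passed (1 unadjusted, 1 by edgeR and 1 by DESeq2), as did 0 of 8 ES cell markers (3 unadjusted, 0 by edgeR and 2 by DESeq2). Among the remaining lists, Hnf4a and Sox3 fell, Wnt3, Nes and Col3a1 rose, and all 6 markers of the 2-cell embryo fell. The part of these markers in the Fgf4 and Tdgf1 results was not tested. Of the other pathway genes, Fgfr2, which encodes an FGF receptor, rose 2.60-fold, with 27.1 ± 11.7 CPM in Double KO and 9.61 ± 1.82 CPM in Smchd1 KO (limma adjusted p = 0.0268). It was the 1 of 38 FGF and ERK genes that passed, and 0 of 19 Nodal and activin genes did (1 unadjusted, 0 by edgeR and 0 by DESeq2).

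**Figure D4:**
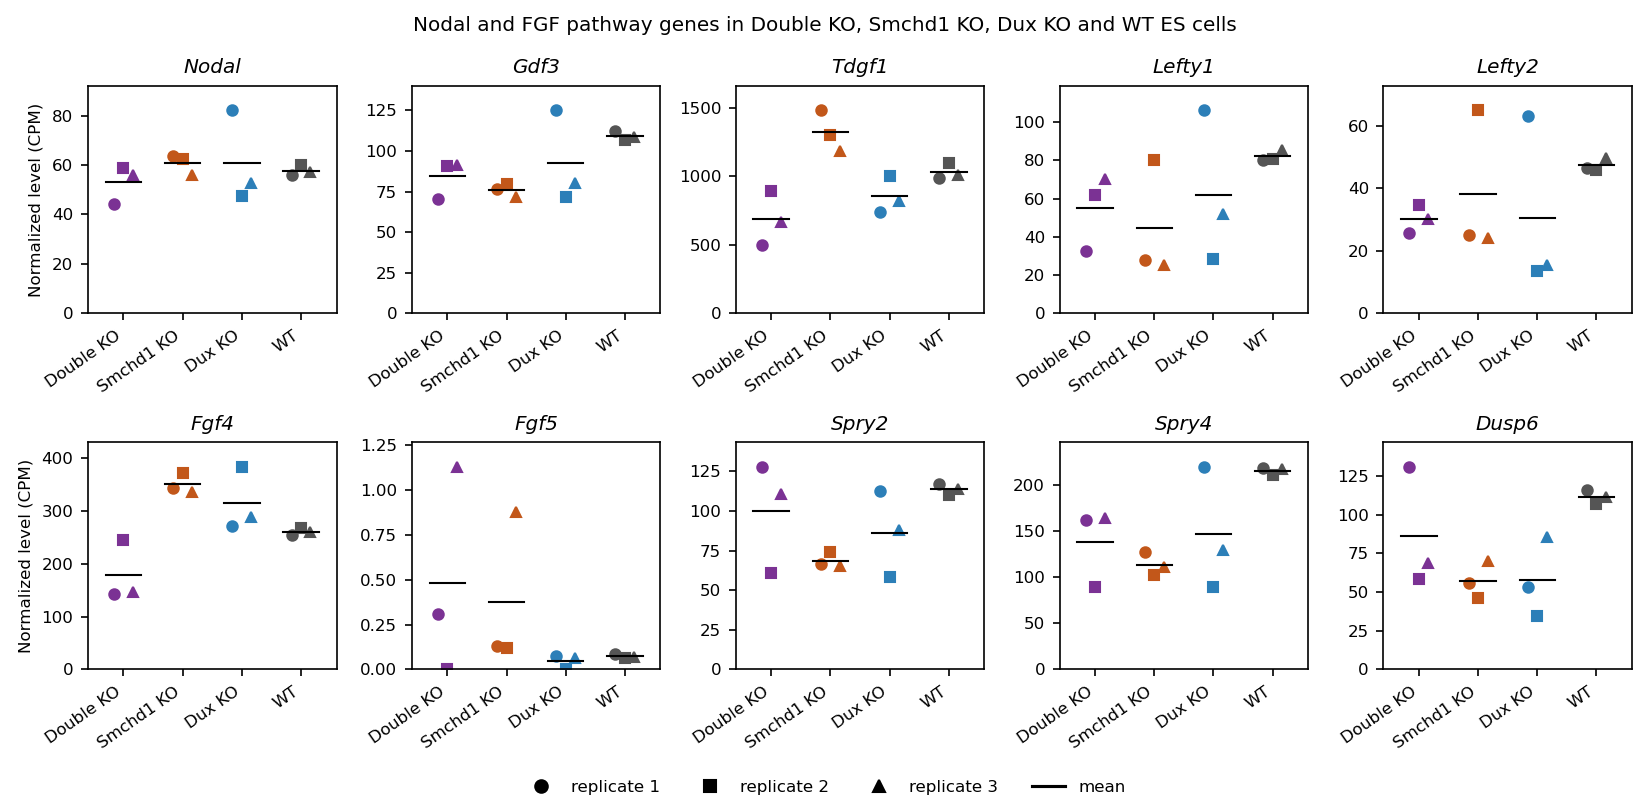
Normalized level in CPM (vertical axes, from 0) of each of the 10 genes in the 3 replicates of Double KO, Smchd1 KO, Dux KO and WT. Points are replicates and bars are means. WT replicates lie close together, Dux KO and Double KO replicates are spread widely, and Smchd1 KO replicate 2 stands apart for Lefty1 and Lefty2.

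Loss of Dux alone was examined in Dux KO compared with WT, which shares its WT samples with the Smchd1 KO comparison. No gene of the 9 tested passed by limma, against 3.98% of all genes. At an unadjusted p under 0.05 there were 2, Dusp6 and Spry4, against 26% of all genes. By edgeR 0 of 9 passed (5.76% of all genes), and by DESeq2 1 of 9 passed, Dusp6 (16.1% of all genes). In a limma fit to Dux KO and WT alone 0 of 9 passed (5.94% of all genes). WT had 2 technical runs per replicate and Dux KO 1; with a single WT run 0 of 9 passed for either run (5.71% and 2.7% of all genes). Replicates did not overlap for 2 of the 9 genes, Dusp6 below WT and Fgf4 above it, against 39.6% of all genes (23.1% below and 16.5% above). Dusp6 had 53.4, 34.3 and 85.9 CPM in Dux KO, against 116, 107 and 111 CPM in WT (log2 -1.04 ± 0.32 SE, limma adjusted p = 0.0848). Fgf4 had 271, 384 and 288 CPM in Dux KO, against 254, 268 and 261 CPM in WT, a gap smaller than the spread within Dux KO (log2 0.25 ± 0.19 SE, limma adjusted p = 0.421).

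Dux KO replicate 1 stood apart for the Nodal ligands and inhibitors. Lefty1 had 106, 28.3 and 51.7 CPM in Dux KO, against 80.1, 81.0 and 85.3 CPM in WT. Lefty2 had 63.1, 13.4 and 15.5 CPM in Dux KO, against 46.6, 45.8 and 49.6 CPM in WT. Replicate 1 was above WT and replicates 2 and 3 below it for both inhibitors, and it was also the highest Dux KO replicate for Nodal (82.1 CPM), Gdf3 (125 CPM) and Spry4 (220.0 CPM). Without it, Lefty2 (log2 -1.68, limma adjusted p = 0.031), Gdf3 (-0.52, 0.0482) and Spry4 (-0.99, 0.0485) passed as lower, 3 of 9 against 4.38% of all genes; the 2 replicates left are those with a shifted autosome, which for replicate 2 is chromosome 6, that of Gdf3. With each chromosome median centred and all replicates kept, the log2 change of Gdf3 was -0.06, against -0.28 without centring. Without Dux KO replicate 3, Dusp6 passed (log2 -1.37, limma adjusted p = 0.0172; 17.4% of all genes). Summed trophoblast markers were 29.0, 19.5 and 197 CPM in the Dux KO replicates, against 58.7 to 62.3 CPM in WT, and endoderm markers 70.1, 34.4 and 161 CPM in Dux KO, against 74.9 to 80.0 CPM in WT; their part in these values was not tested. All 6 markers of the 2-cell embryo fell, and Utf1 was the 1 of 8 ES cell markers that passed, as lower.

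Of 38 other FGF and ERK genes tested in Dux KO compared with WT, 2 passed, both as lower. Mapk3, which encodes the kinase ERK1, fell 1.74-fold, with 57.7 ± 14.1 CPM in Dux KO and 98.5 ± 4.33 CPM in WT (limma adjusted p = 0.0271). Gab1, which encodes an adaptor of receptor signalling, fell 1.43-fold, with 449.6 ± 43.3 CPM in Dux KO and 642 ± 12.8 CPM in WT (limma adjusted p = 0.0442).

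In Double KO compared with WT all 9 genes tested had a log2 change below 0, with a median of -0.60, against -0.04 over all genes. None passed by limma, against 1.57% of all genes, and 3 of 9 had an unadjusted p under 0.05, Fgf4, Tdgf1 and Spry4, against 23.1% of all genes. By edgeR 0 of 9 passed (3.43% of all genes), and by DESeq2 0 of 9 (12.4% of all genes). In 6 of the 9 genes every Double KO replicate lay below every WT replicate, namely Lefty1, Lefty2, Gdf3, Tdgf1, Fgf4 and Spry4, against 36.2% of all genes without overlap in either direction and 21% in this one. With a single WT run per replicate 0 of 9 passed by limma for either run (3.22% and 0.966% of all genes). These WT samples also serve the Smchd1 KO and Dux KO comparisons. Tdgf1 averaged 684 ± 198 CPM in Double KO and 1028 ± 57.7 CPM in WT (log2 -0.63 ± 0.20 SE, limma adjusted p = 0.0976), and Spry4 averaged 138 ± 42.7 CPM in Double KO and 216 ± 4.09 CPM in WT (log2 -0.69 ± 0.29 SE, limma adjusted p = 0.18). Mapk3 fell 1.63-fold (limma adjusted p = 0.0488), with 60.2 ± 5.30 CPM in Double KO and 98.5 ± 4.33 CPM in WT, and was the 1 of 38 FGF and ERK genes that passed. Of 19 Nodal and activin genes 0 passed by limma (6 unadjusted, 0 by edgeR and 1 by DESeq2). The fibroblast marker Col3a1 rose, the 6 markers of the 2-cell embryo fell, and the summed ES cell markers stood at 1958 to 3149 CPM in Double KO, against 3320 to 3357 CPM in WT. The part of these markers in the values was not tested.

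Loss of Smchd1 in cells without Dux was examined in Double KO compared with Dux KO. By limma 0 of 9 genes passed, against 0.0123% of all genes, and at an unadjusted p under 0.05 there was 1, Fgf4, against 9.77% of all genes. By edgeR 0 of 9 passed (0.0123% of all genes), and by DESeq2 1 of 9, Fgf4 (adjusted p = 0.0173; 1.36% of all genes). Fgf4 was also the 1 gene without overlap, against 6.15% of all genes (3.1% with Double KO below), with 143, 244 and 146 CPM in Double KO and 271, 384 and 288 CPM in Dux KO (log2 -0.85 ± 0.19 SE, limma adjusted p = 0.183). Dusp6 had 131, 58.2 and 69.0 CPM in Double KO, against 53.4, 34.3 and 85.9 CPM in Dux KO, with overlap (log2 0.58 ± 0.32 SE, limma adjusted p = 0.616). Lefty2 averaged 30.3 ± 4.47 CPM in Double KO and 30.7 ± 28.1 CPM in Dux KO (limma adjusted p = 0.892). Markers of other cell types differed in the same samples. Trophoblast markers summed to 136 to 697 CPM in Double KO, against 19.5 to 197 CPM in Dux KO, with 0 of 3 passed by limma (3 unadjusted, 0 by edgeR and 1 by DESeq2) and a median log2 change of 2.14. Fibroblast markers summed to 27.0 to 54.8 CPM in Double KO, against 6.26 to 27.2 CPM in Dux KO, with 0 of 5 passed by limma (3 unadjusted, 0 by edgeR and 1 by DESeq2) and a median log2 change of 1.78. Their part in the Fgf4 values was not tested. Of the other pathway genes, 0 of 19 Nodal and activin genes (2 unadjusted, 0 by edgeR and 1 by DESeq2) and 0 of 38 FGF and ERK genes (3 unadjusted, 0 by edgeR and 0 by DESeq2) passed by limma.

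The difference between the effect of Smchd1 loss without Dux and its effect with Dux was tested as an interaction in the same fit. By limma 0 of 9 genes passed, against 0.512% of all genes, and 5 of 9 had an unadjusted p under 0.05, against 17.4% of all genes. By edgeR 0 of 9 passed (0.0432% of all genes), and by DESeq2 2 of 9, Fgf4 and Dusp6 (5.84% of all genes). For Fgf4 the log2 effect of Smchd1 loss was -0.85 without Dux and 0.42 with Dux, a difference of -1.27 ± 0.27 SE (limma adjusted p = 0.0667, DESeq2 adjusted p = 0.00328). For Dusp6 the effects were 0.58 without Dux and -0.97 with Dux, a difference of 1.55 ± 0.46 SE (limma adjusted p = 0.131, DESeq2 adjusted p = 0.0358). Without Double KO replicate 2, Fgf4, Dusp6, Tdgf1 and Spry2 passed by limma, 4 of 9 against 7.57% of all genes. Of the other pathway genes, the interaction passed for 0 of 19 Nodal and activin genes (1 unadjusted, 0 by edgeR and 1 by DESeq2) and 0 of 38 FGF and ERK genes (9 unadjusted, 0 by edgeR and 4 by DESeq2).

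**Figure D5:**
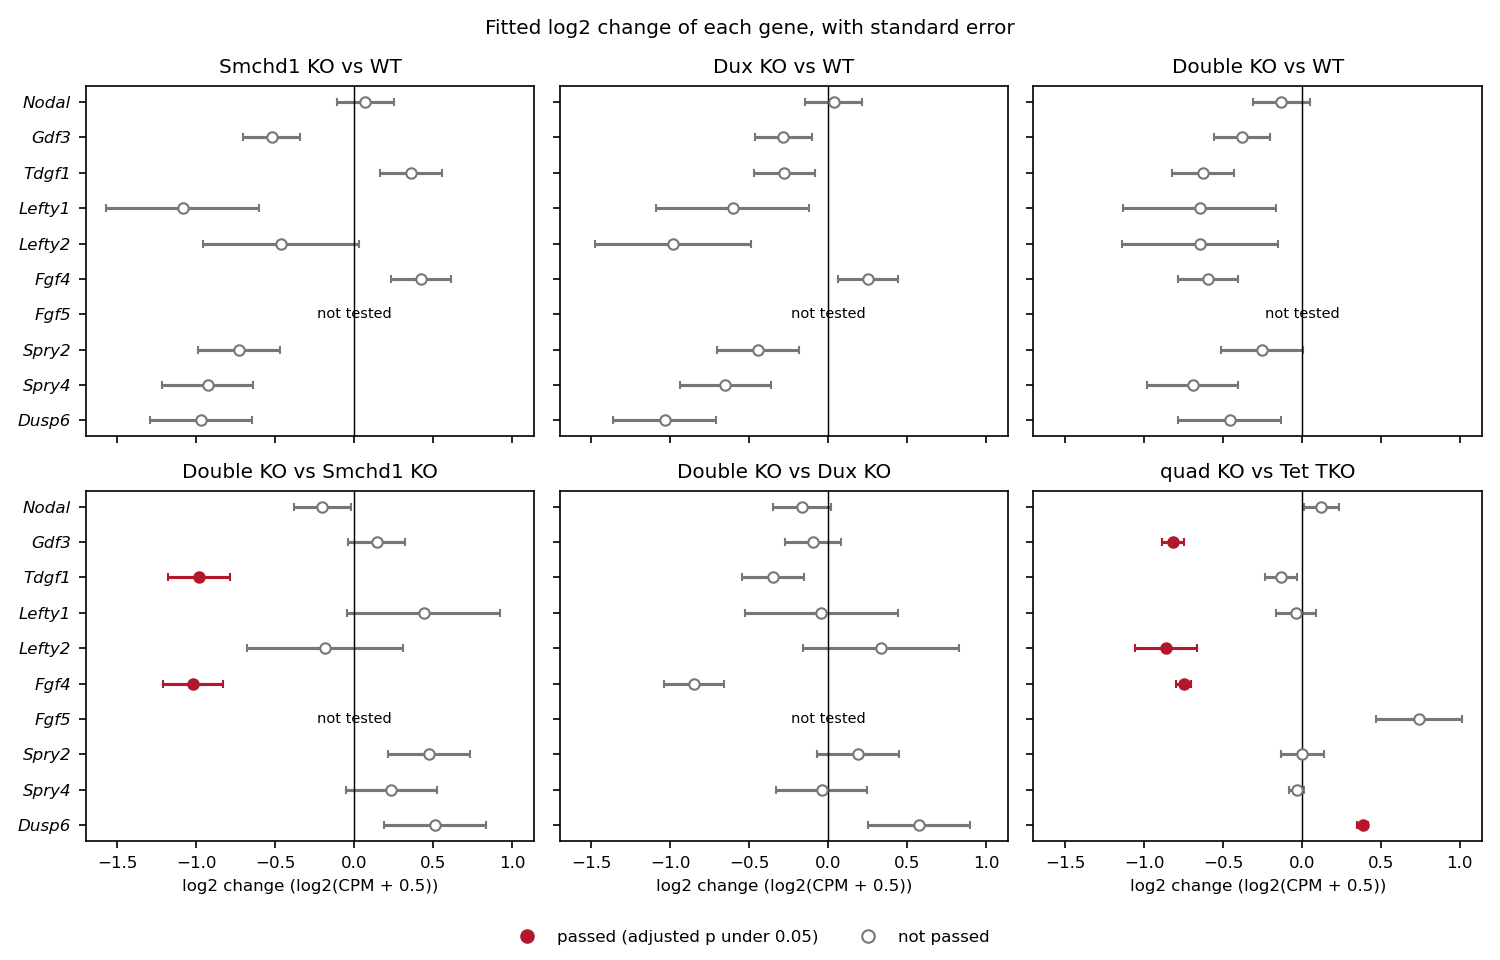
Fitted log2 change of each gene, on the log2(CPM + 0.5) scale (horizontal axes), in 6 comparisons, with bars of 1 SE; filled points passed at a limma adjusted p under 0.05. Fgf4 and Tdgf1 are filled in Double KO vs Smchd1 KO, and Gdf3, Lefty2, Fgf4 and Dusp6 in quad KO vs Tet TKO, where standard errors are smaller.

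Across the 4 genotypes of the first table the genes took different orders. Fgf4 averaged 178 ± 57.5 CPM in Double KO, 350.4 ± 19.1 CPM for Smchd1 KO, 314 ± 60.9 CPM in Dux KO and 261 ± 6.55 CPM in WT. It was thus highest in Smchd1 KO, then in Dux KO, WT and Double KO, and of the neighbours in this order only Smchd1 KO and Dux KO overlapped. Tdgf1 averaged 684 ± 198 CPM in Double KO, 1322 ± 149 CPM for Smchd1 KO, 855 ± 135 CPM in Dux KO and 1028 ± 57.7 CPM in WT. Its order was Smchd1 KO, WT, Dux KO and Double KO, and of these neighbours only Smchd1 KO and WT did not overlap. Dusp6 averaged 86.1 ± 39.3 CPM in Double KO, 57.3 ± 11.8 CPM for Smchd1 KO, 57.8 ± 26.1 CPM in Dux KO and 111 ± 4.37 CPM in WT. It was highest in WT, then in Double KO, with Dux KO and Smchd1 KO close together, and all neighbours overlapped. Nodal averaged 53.0 ± 7.74 CPM in Double KO, 60.7 ± 4.25 CPM for Smchd1 KO, 60.8 ± 18.6 CPM in Dux KO and 57.7 ± 2.08 CPM in WT, and each pair of genotypes overlapped.

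Fgf5 was near the limit of detection in the first table and was not tested there, since too few samples reached 0.5 CPM. It had 5, 0 and 19 reads in the Double KO replicates, 10, 5 and 50 reads in Smchd1 KO, 1, 0 and 1 reads in Dux KO, and 6, 4 and 10 reads in WT. The highest levels were 1.13 CPM in Double KO replicate 3 and 0.878 CPM in Smchd1 KO replicate 3, and WT stayed at 0.0649 to 0.0859 CPM. The count of 0 allows up to 0.183 CPM in Double KO replicate 2 and 0.206 CPM in Dux KO replicate 2, a limit of 3 reads that covers counting error only.

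Genes whose pattern was most like Nodal and Dusp6 were found by Pearson correlation of log2(CPM + 0.5) over the 12 biological samples of the first table, among 16200 genes. These samples share genotypes and a normalization, and the values are a description. Nodal was most like Sorcs2 (0.92), St8sia6 (0.88), Lipo2 (0.88), 4930503L19Rik (0.88) and Hltf (0.87), while its feedback inhibitor Lefty2 ranked 178 (0.66) and Lefty1 ranked 513 (0.56). Dusp6 was most like Hoxa10 (0.98), Cul1 (0.97), Sec24d (0.96), Rap1b (0.95) and Ttll12 (0.95), while Spry2 ranked 467 (0.75) and Spry4 ranked 893 (0.67).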

How the data were processed

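RNA sequencing of mouse ES cells was analysed from tables of normalized expression deposited by the authors. Per the submitters' processing notes, Trim Galore, STAR 2.5.1, limma 3.38.2 and mouse build mm9 were used; the read counter, annotation and filters are not given in the sources used here. The deposited signal is CPM of an effective library size. In every library 100% of the values below 200 reads lay within 0.1 read of a whole number, so whole reads were recovered. Depth was 11399800 to 74448400 gene reads per library, and intervals and limits cover counting error only. A further 3 columns of the second table match no sample and were not used, so the planned comparisons of Tet TKO and quad KO with WT were not analysed here.

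Genotypes came from the labels. The Smchd1 KO columns carry no replicate number: their 2 runs per replicate were paired by the smallest noise ratio (median squared difference in units of counting error; 1.81 to 2.32 within and 3.14 to 12.8 between pairs), and their numbers only name samples. Genes were kept where 3 or more biological samples reached 0.5 CPM (16200 and 14920 genes). Log2(CPM + 0.5) was fitted with limma 3.58.1 in R 4.3.3, in a fit of genotype means that pools the spread over a table, with an intensity trend. Tests were two-sided, with a Benjamini-Hochberg adjusted p under 0.05 over all genes tested. Fold changes on this scale understate those of low genes. Counts recovered from the deposited values were tested with edgeR 4.0.16 and DESeq2 1.42.0, as alternatives. The limma fit was tested on simulated data. Chromosomes and shared 50-base words came from the GENCODE annotation and transcripts of GRCm38, matched by gene identifier, and promoters from RefSeq. The 10 genes are named in every comparison; of the other pathway genes, at most the 8 largest passing changes per list are named. Members and lists were chosen with earlier results of these data known. The results of 1 gene of the Nodal and activin list are not reported here.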

Additional observations from a re-analysis of the deposited data

Results flagged for a closer look

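In 3 measures the change in Smchd1 KO compared with WT ran opposite to that in quad KO compared with Tet TKO. Replicates of the genotypes did not overlap in either comparison. The share of all genes without overlap was 57.7% in Smchd1 KO compared with WT and 53.3% in quad KO compared with Tet TKO. The share without overlap in both, in opposite directions, was not counted. Fgf4 changed by 0.42 on the log2 scale in Smchd1 KO compared with WT and by -0.75 in quad KO compared with Tet TKO. Dusp6 changed by -0.97 in Smchd1 KO compared with WT and by 0.38 in quad KO compared with Tet TKO. The log2 ratio of Lefty1 to Lefty2 differed by -0.63 between Smchd1 KO and WT and by 0.85 between quad KO and Tet TKO. Gdf3 also had no overlap in either comparison, but was lower in both. Its log2 change was -0.52 in Smchd1 KO compared with WT and -0.82 in quad KO compared with Tet TKO. The differences between these effects were not tested, since the effects lie in tables normalized separately. Fgf4 and Dusp6 passed by limma in quad KO compared with Tet TKO, and neither passed in Smchd1 KO compared with WT. With the Tet genes but without Dux, in Double KO compared with Dux KO, the log2 changes were -0.85 for Fgf4 and 0.58 for Dusp6. Both had the direction of quad KO, with overlap for Dusp6 only, and neither passed by limma. The log2 ratio of Lefty1 to Lefty2 differed by -0.39 there, with overlap. The part of the Tet genes in these directions was not tested.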

How the results depend on the processing

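The number of the 9 or 10 genes that passed changed with the processing as follows. With DESeq2 in place of limma it was 1 for Smchd1 KO vs WT (6.68% of all genes), 1 for Dux KO vs WT (16.1%), 1 for Double KO vs Dux KO (1.36%) and 2 for the interaction (5.84%), where limma gave 0. In a fit to the compared genotypes alone it was 6 for Smchd1 KO vs WT (44.1% of all genes passed), against 0 in the fit to all 4. In such a fit it was 0 for Double KO vs Smchd1 KO (0.781% of all genes passed), against 2 in the fit to all 4. Without the 4 samples with a shifted autosome, an alternative chosen after seeing the data, it was 4 for Smchd1 KO vs WT (17.3% of all genes), 4 for Double KO vs Dux KO (21.1%) and 4 for Double KO vs WT (42.7%); 1 Dux KO sample was then left and assumed to vary like the others, and Lefty2 in Double KO vs Dux KO turned to a log2 change of -1.06 (adjusted p = 0.00954), against 0.34. Leaving out 1 replicate at a time gave 0 to 1 genes for Smchd1 KO vs WT, 0 to 3 for Dux KO vs WT, 0 to 1 for Double KO vs Dux KO, 0 to 3 for Double KO vs Smchd1 KO, 0 to 1 for Double KO vs WT, 0 to 4 for the interaction and 4 to 7 for quad KO vs Tet TKO. The share of all genes that passed moved as well. It was 4.38% in Dux KO vs WT without Dux KO replicate 1, where 3 of the genes passed. It was 7.57% in the interaction without Double KO replicate 2, where 4 passed. In quad KO vs Tet TKO without quad KO replicate 3, where 7 passed, it was 51.3%. In Double KO vs Smchd1 KO, Spry2 also passed without Double KO replicate 2 (8.61% of all genes passed). A single gene passed in Smchd1 KO vs WT without Dux KO replicate 1 (Gdf3, 2.41% of all genes) and in the interaction without that replicate (Fgf4, 4.2%). Without Double KO replicate 2, Fgf4 alone passed in Double KO vs Dux KO (0.908% of all genes) and in Double KO vs WT (0.983%). Spry2 in quad KO vs Tet TKO, with a log2 change of 0.0022, ranged over -0.18 (without quad KO replicate 3, adjusted p = 0.0133) to 0.14 (without quad KO replicate 2). Over all 1428 settings for single genes, 1377 kept the call, 39 gained one, 10 lost one and 2 passed in one setting with the sign turned. The sign also turned in 31 of the 1377, with no call on either side, 13 of them in Double KO vs Dux KO, 6 in quad KO vs Tet TKO and 5 in Dux KO vs WT. The cause was not tested.

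Replicate numbers did not pair samples: deviations of same-numbered samples correlated at -0.13 to 0.47 in the first table and -0.03 to 0.02 in the second. With the replicate number as a block and no Smchd1 KO in the fit, 0 genes passed in Double KO vs WT (0.151% of all genes), 0 in Dux KO vs WT (0.189%) and 0 in Double KO vs Dux KO (0.0126%), and 4 passed in quad KO vs Tet TKO (32.9%). No paired analysis was possible for comparisons with Smchd1 KO because its columns carry no replicate number. For the same reason single technical runs were tried for WT only, and alternatives for Tet TKO and quad KO against WT were not run.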

Other observations

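The summed level of Lefty1 and Lefty2 divided by that of Nodal was 0.829, 2.33 and 0.888 in the Smchd1 KO replicates, 1.32 to 1.79 in Double KO and 0.877 to 2.06 in Dux KO, against 2.11 to 2.36 in WT. It was 0.386 to 0.570 in quad KO, against 0.652 to 0.716 in Tet TKO. Quad KO lay below Tet TKO in every replicate, Double KO and Dux KO lay below WT in every replicate, and Smchd1 KO replicate 2 lay within the WT range while replicates 1 and 3 lay below it. The ratio is not per transcript length and was not tested.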
